A study of Mus musculus with 23 samples.

Results

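Brain RNA from mice carrying the Csf1R-G793A allele was compared with brain RNA from wild-type (WT) mice while both genotypes ate PLX3397 chow. The samples were chosen by their titles, which gave 4 G793A libraries and 4 WT libraries on PLX3397, together 8 of the 23 libraries of the series. All mice were on the C57BL/6J background and were fed for 14 days, and the dose of PLX3397 was 290 mg/kg of chow. The other groups were control chow (3 WT and 4 G793A libraries) and chow with PLX5622 at 1200 mg/kg (4 and 4), and their genotype differences are set below beside that on PLX3397. The study asked whether the allele prevents the effects of CSF1R inhibitors on the brain transcriptome. The contrast is between the genotypes on the same chow, so it has no control-chow library in either arm. All 23 libraries share the model that estimates the spread and the filter behind the p-values, and with the 8 PLX3397 libraries alone fewer genes pass, as given below. The labels give the tissue as brain with no region, age or sex, and they do not say that the libraries came from separate mice, so the p-values speak of the spread among the libraries at hand, which may be technical.

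CSF1R is the receptor tyrosine kinase for the growth factors CSF1 and IL-34, and microglia, the resident macrophages of the brain, depend on its signal to survive. PLX3397 and PLX5622 are small-molecule inhibitors of the receptor that are given in chow to deplete microglia, and PLX3397 is also known to act on the related kinases KIT and FLT3. Macrophages at the borders of the brain (meninges, perivascular spaces and choroid plexus) depend on CSF1R as well. The library count per gene does not read the substitution itself, so the level of Csf1r is no check of the genotype labels. In bulk tissue, fewer cells of a type and less RNA per cell cannot be told apart, and this holds for every difference below.

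Total counts were 33.0 to 38.3 M in the WT libraries and 26.3 to 43.3 M in the G793A libraries. In 3 of the 8 libraries the neuronal activity gene Npas4 stood above 100 CPM (counts scaled to library size): 152 in WT replicate 1, 185 in G793A replicate 2 and 214 in G793A replicate 4, against 8.04 to 18.0 in the other 5. These 3 libraries were left out in an alternative added after seeing the data. WT replicate 4 had the lowest summed level of 15 homeostatic microglia genes (71.3 CPM); the other WT libraries had 86.7 to 100.9 CPM and the G793A libraries 243 to 291 CPM. Summed red blood cell genes reached 37.2 to 100.4 CPM in WT and 67.8 to 216 CPM in G793A, and summed hypothalamic neuropeptide genes ran from 23.03 to 101 CPM in WT and from 2.52 to 64.8 CPM in G793A.

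The promoters of several genes that were higher in G793A brains hold the letters GAGGAAGT, a form of the site bound by PU.1, the myeloid master factor encoded by Spi1. They are shown because Spi1 itself was among the genes that differed, and whether PU.1 has a part in the differences was not tested. The stretches are RefSeq sequence on build GRCm38.p6, 80 bases each, written 5′ to 3′ on the strand of the gene and taken from windows of 250 bases before to 50 after the start. Capitals mark the motif, which reads ACTTCCTC where it lies on the other strand. Those shown belong to Vav1 (chr17:57279020-57279099, plus strand), Tagap (chr17:7925822-7925901, plus strand), Pf4 (chr5:90772355-90772434, plus strand) and C1qc (chr4:136893066-136893145, minus strand).
Vav1: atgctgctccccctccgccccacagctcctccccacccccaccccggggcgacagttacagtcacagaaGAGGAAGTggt
Tagap: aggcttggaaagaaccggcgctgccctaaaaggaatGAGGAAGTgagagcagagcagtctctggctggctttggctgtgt
Pf4: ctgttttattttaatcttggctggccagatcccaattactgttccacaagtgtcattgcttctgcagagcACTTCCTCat
C1qc: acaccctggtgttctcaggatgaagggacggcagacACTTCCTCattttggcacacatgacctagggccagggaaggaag
On either strand, the 8 letters occurred in 3.2% of all 32851 promoter windows of the same length in the table. A promoter was matched by symbol for 119 of the 151 genes higher in G793A brains, which is under 80%, so a share over those genes is void and is not given. A match of letters is a description of the sequence and not a measured site.

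The genotype difference on PLX3397 was almost all in 1 direction. Of 16209 genes tested, 151 (0.932%) were higher in G793A than in WT brains and 1 (0.00617%) was lower, at an adjusted p under 0.05 (edgeR's quasi-likelihood test with Benjamini-Hochberg adjustment over all genes tested, as for every adjusted p below). The 151 log2 fold changes ran from 0.28 to 3.18 with a median of 1.31, which is a median fold of 2.47. At least 2-fold differences were seen for 100 of them, at least 4-fold for 11, and under 1.5-fold for 17. In all 151, every G793A library was above every WT library, which is set in part by choosing the genes on these same libraries. Groups failed to overlap in that direction for 3.78% of all genes tested and in the opposite direction for 3.55%, and 50.3% of all genes had a positive log2 fold change. At an unadjusted p under 0.05 there were 1288 genes, of which 621 were lower in G793A. With only the 8 PLX3397 libraries in the model, 100 genes were higher and 5 lower, and 95 of the 100 were among the 151.

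**Figure D1:**
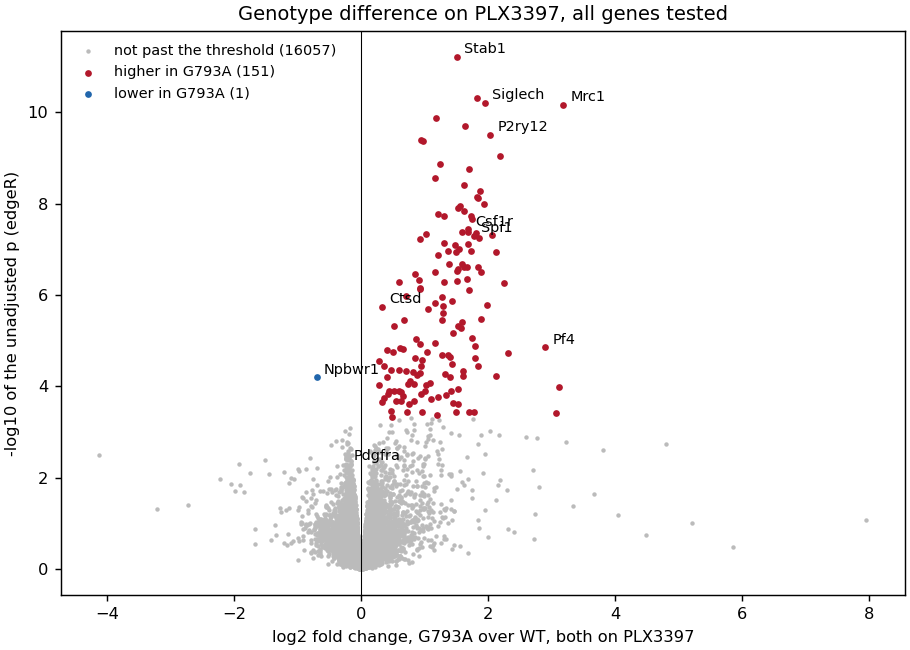
Each point is 1 of 16209 genes, with the log2 fold change of G793A over WT brains on PLX3397 on the x axis and -log10 of the unadjusted edgeR p on the y axis. The 151 red genes lie on the right, with log2 fold changes of 0.28 to 3.18, and the only blue gene on the left is Npbwr1.

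The target of the inhibitor, Csf1r, was higher in G793A brains. Its level was 25.5, 28.9, 21.6 and 17.0 CPM in WT replicates 1 to 4 and 69.9, 79.7, 75.7 and 72.4 CPM in G793A replicates 1 to 4. The groups lay far apart, with a gap between the highest WT and the lowest G793A library wider than the range of either. The log2 fold change was 1.68 ± 0.19 (SE, n = 4 per group), or 3.20-fold, with an adjusted p of 2.29e-05. Against control chow of the same genotype, Csf1r stood at 24.8% in WT and at 91.4% in G793A brains.

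The ligand genes showed no such difference. Csf1 had a log2 fold change of -0.05 ± 0.07 (95% interval -0.19 to 0.09) and Il34 of 0.00 ± 0.07 (-0.15 to 0.16), both in overlapping groups. Among 10 related receptor kinases and their ligands, none passed the test, and the median log2 fold change was -0.01. Kit, the stem cell factor receptor, was at -0.04 (-0.26 to 0.17) and Flt3, another haematopoietic receptor, at 0.11 (-0.17 to 0.39). Pdgfra, the receptor that marks oligodendrocyte precursors, was 56.8, 50.3, 56.6 and 52.6 CPM in WT and 48.2, 50.7, 47.9 and 35.9 CPM in G793A replicates 1 to 4. G793A replicate 4 was the lowest of the 8, the groups overlapped, and the log2 difference of -0.24 ± 0.08 did not pass (adjusted p = 0.290).

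**Figure D2:**
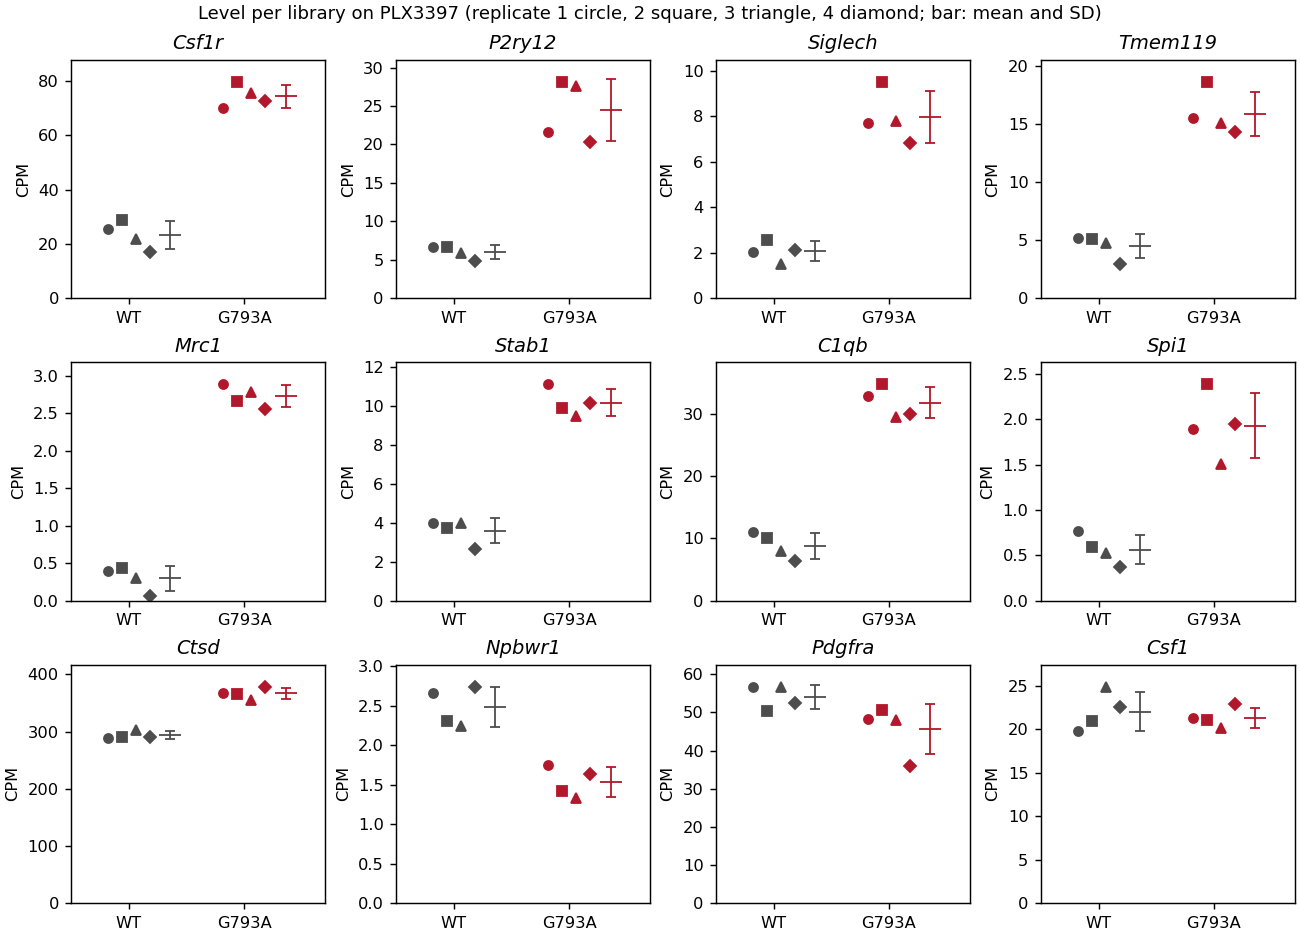
Panels show 12 genes, with the level in CPM on a y axis from 0 and the 8 PLX3397 libraries on the x axis by genotype; bars give the mean and SD of 4 libraries. Red G793A points lie above all grey WT points from Csf1r (69.9 to 79.7 against 17.0 to 28.9 CPM) to Ctsd, below them in Npbwr1, and among them in Pdgfra and Csf1.

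Homeostatic microglia genes, which mark surveying microglia and fall when these cells are lost or activated, were higher in G793A brains for 13 of 15 members. The median log2 fold change of the 15 was 1.73 against 0.00 over all genes tested. Among all genes tested 0.932% were higher, the share to set beside this count and those of the lists below. P2ry12, the ADP receptor that steers microglial processes, was 6.63, 6.66, 5.89 and 4.78 CPM in WT and 21.6, 28.2, 27.7 and 20.4 CPM in G793A replicates 1 to 4. The gap between the groups was wider than the range of either, and its log2 fold change was 2.03 ± 0.18 (adjusted p = 7.34e-07). The neighbouring purine receptor gene P2ry13 differed more, with 1.30 to 2.51 CPM in WT and 6.63 to 9.09 CPM in G793A brains (log2 fold change 2.19 ± 0.22).

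Siglech, a sialic acid-binding lectin, was 2.05, 2.58, 1.52 and 2.12 CPM in WT and 7.69, 9.51, 7.80 and 6.82 CPM in G793A replicates 1 to 4. The groups did not overlap, and the log2 fold change was 1.95 ± 0.17 (adjusted p = 2.79e-07). Tmem119, a membrane protein used to tell microglia from other macrophages, was 3.55-fold higher in G793A brains. It was 2.94 to 5.22 CPM in WT and 14.3 to 18.7 CPM in G793A libraries. The members that did not pass were P2ry6 (log2 fold change 0.81, adjusted p = 0.260) and Adora3 (0.79, adjusted p = 0.533), nucleotide and adenosine receptor genes below 2 CPM in the 8 libraries.

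Of the genes shared by microglia and other myeloid cells, 13 of 16 were higher, with a median log2 fold change of 1.56. Cd53, a leukocyte tetraspanin, was 1.47 to 2.63 CPM in WT and 5.79 to 7.19 CPM in G793A brains (log2 fold change 1.63 ± 0.15, adjusted p = 5.41e-07). Aif1, which encodes the calcium-binding protein IBA1 used to stain microglia, was 0.917, 1.13, 1.44 and 0.792 CPM in WT and 3.42, 3.48, 3.66 and 3.43 CPM in G793A replicates 1 to 4. Its spread among the 4 G793A libraries was small beside the 3.26-fold difference. The members that did not pass were Ptprc (CD45, log2 fold change 0.55), Cd14 (1.54, adjusted p = 0.106) and the actin regulator Coro1a (0.07). Coro1a was 68.6 to 79.2 CPM in WT and 75.3 to 80.4 CPM in G793A brains.

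Of 10 myeloid transcription factor genes, 4 were higher: Spi1, Irf5, Irf8 and Ikzf1. Spi1 was 0.764, 0.590, 0.525 and 0.368 CPM in WT and 1.89, 2.39, 1.50 and 1.94 CPM in G793A replicates 1 to 4, with no overlap (log2 fold change 1.78 ± 0.23, adjusted p = 2.56e-05). Irf5 and Irf8, interferon regulatory factors of myeloid cells, were 2.62-fold and 2.47-fold higher. The difference was smaller and did not pass for Runx1 (log2 fold change 0.83, adjusted p = 0.0890) and the microglial identity factor gene Sall1 (0.27, adjusted p = 0.707). Sall1 had overlapping groups.

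Border-associated macrophage markers were also higher in G793A brains, and they included the largest fold among the 151 genes. All 12 members were positive, beside 50.3% of all genes tested, and 8 had groups that did not overlap, beside 3.78%. The test was passed by 5, beside 0.932%, and the median log2 fold change of the 12 was 1.39. Mrc1, the mannose receptor CD206, was 0.397, 0.429, 0.304 and 0.0566 CPM in WT and 2.89, 2.67, 2.79 and 2.55 CPM in G793A replicates 1 to 4. WT replicate 4 was far below the other WT libraries, and the 9.09-fold difference (log2 fold change 3.18 ± 0.28, adjusted p = 2.79e-07) was that fold. Stab1, a scavenger receptor of macrophages and endothelium, was 4.00, 3.76, 3.98 and 2.63 CPM in WT and 11.1, 9.90, 9.50 and 10.2 CPM in G793A. It had the smallest adjusted p of the comparison, 1.00e-07, at 2.83-fold.

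Other border macrophage genes rested on few counts. Pf4, the chemokine CXCL4, had 6 counts over the 4 WT libraries and 50 over the 4 G793A libraries, a ratio of 7.98 (95% exact interval 3.42 to 22.8, counting error only; edgeR adjusted p = 0.00269). Cd209f, a C-type lectin, had 4 against 39 counts (ratio 9.34, interval 3.37 to 36; edgeR adjusted p = 0.0137). F13a1, coagulation factor XIII A, was 0.170 to 0.644 CPM in WT and 1.07 to 1.50 CPM in G793A brains (adjusted p = 0.00714). The members that did not pass included the scavenger receptor Cd163, at 1.18 to 1.92 CPM in WT and 1.55 to 2.51 CPM in G793A brains, and Lyve1, whose groups did not overlap (log2 fold change 1.19, adjusted p = 0.193). The count of 5 fell to 2 when the model held the 8 PLX3397 libraries alone, and to 2 without the 3 libraries with high Npas4. Cd209f did not pass without WT replicate 2 (adjusted p = 0.0702), WT replicate 4 (0.0576) or G793A replicate 4 (0.0605).

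**Figure D3:**
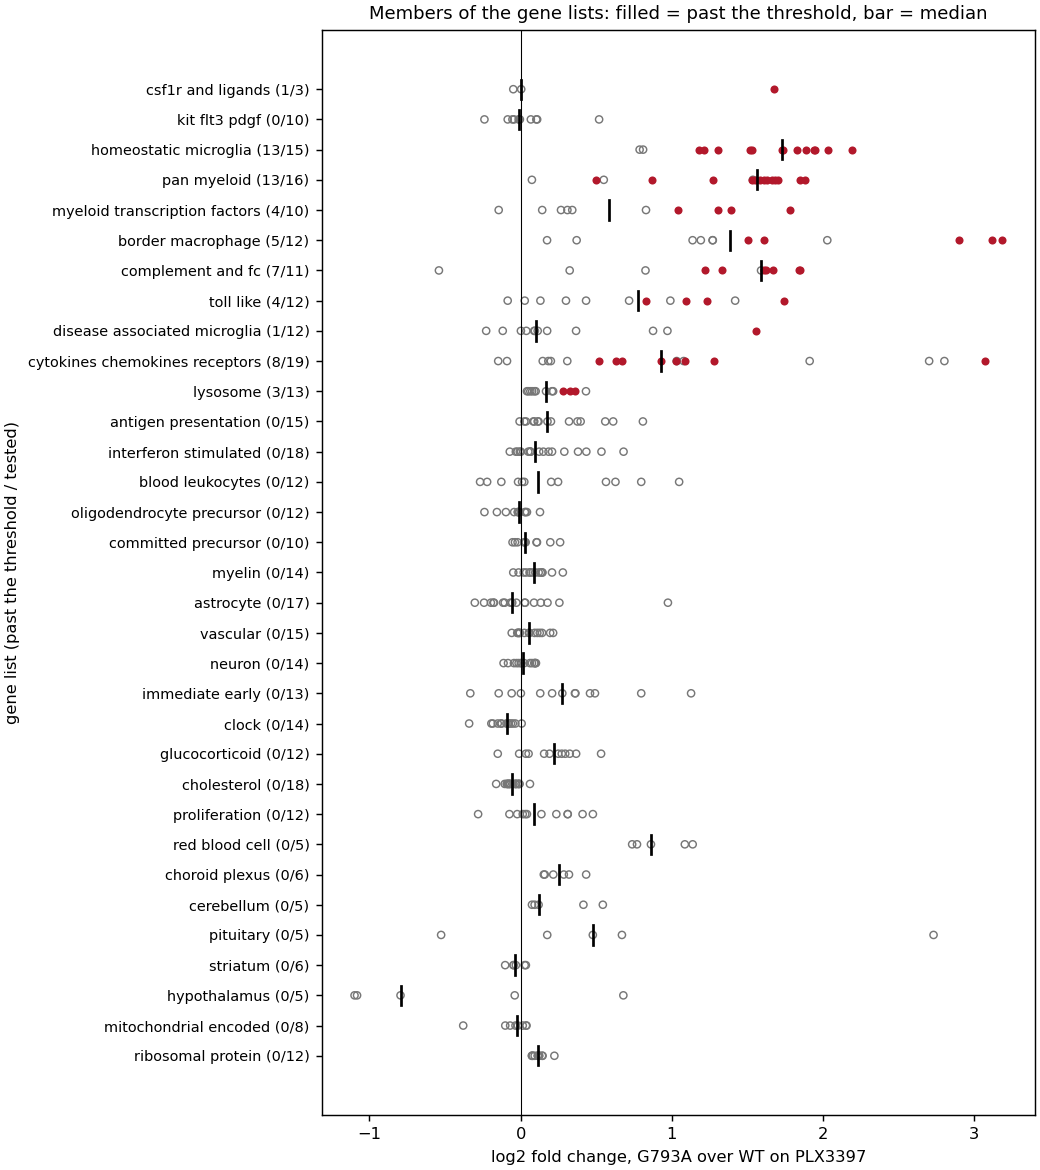
Each row is a gene list, each point a member's log2 fold change of G793A over WT brains on PLX3397 (x axis), filled where it passed the test; the bar is the list's median and brackets give members past the threshold of members tested. Filled points are found in lists at the top, of Csf1r, myeloid, immune receptor, cytokine and lysosomal genes. None of the lists of neurons, astrocytes, oligodendrocytes and their precursors, vessels or blood cells has any.

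Complement and Fc receptor genes, which microglia use to tag and engulf synapses and debris, were higher for 7 of 11 members with a median log2 fold change of 1.59. C1qb, a chain of the first complement component, was 11.0, 10.01, 7.91 and 6.34 CPM in WT and 32.8, 34.7, 29.5 and 29.9 CPM in G793A replicates 1 to 4. The groups did not overlap, WT replicate 4 was again the lowest, and the log2 fold change was 1.85 ± 0.22 (adjusted p = 2.80e-05). Its partner chains C1qa (1.84) and C1qc (1.67) were also higher in G793A brains. The other higher members were the complement receptors C3ar1 (1.33) and C5ar1 (1.61), and the Fc receptors Fcgr1 (1.22) and Fcgr3 (1.63). C3ar1 lost its call without WT replicate 3 or 4 or G793A replicate 2 or 4 (adjusted p from 0.061 to 0.116), and C5ar1 without WT replicate 2 or 3 or G793A replicate 4 (0.0524 to 0.0562). C3, which brain cells other than microglia also make, had a log2 fold change of -0.54 and did not pass (adjusted p = 0.731).

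Toll-like receptors and their partners were higher in G793A brains for 4 of 12 members: Unc93b1 and the receptors Tlr13, Tlr7 and Tlr2. Unc93b1 is the chaperone that carries nucleic acid-sensing receptors to endosomes. Unc93b1 was 3.05 to 5.10 CPM in WT and 8.36 to 10.8 CPM in G793A brains (2.35-fold, adjusted p = 2.06e-06). Tlr13, which senses bacterial ribosomal RNA, was 3.35-fold higher and Tlr7, which senses single-stranded RNA, 1.78-fold. Tlr7 lost its call without WT replicate 2, 3 or 4 or G793A replicate 4 (adjusted p between 0.0546 and 0.0797), and Tlr2 without WT replicate 2, 3 or 4 or G793A replicate 3 or 4 (0.0509 to 0.137). The count of 4 fell to 2 without WT replicate 2, 3 or 4 or G793A replicate 4.

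Of the disease-associated microglia genes, which are known to rise around plaques and in injury, 1 of 12 passed and the median log2 fold change was 0.10. That member was Trem2, the lipid-sensing receptor upstream of the state, at 2.90, 3.60, 3.07 and 2.74 CPM in WT and 8.23, 10.8, 8.51 and 8.80 CPM in G793A replicates 1 to 4 (2.95-fold, adjusted p = 9.49e-06). Apoe (log2 fold change 0.11), Axl (0.00), Spp1 (0.18) and Lpl (-0.23) did not pass.

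Cytokines, chemokines and their receptors were higher in G793A brains for 8 of 19 members. Il10ra, the interleukin-10 receptor, was 2.13 to 2.63 CPM in WT and 4.73 to 4.92 CPM in G793A brains, a tight 2.03-fold difference (adjusted p = 2.45e-05). Tgfb1, a growth factor that microglia need to keep their identity, was 1.90-fold higher. The chemokine Ccl3 did not pass (adjusted p = 0.336), and its level split by library: 4.15 and 3.35 CPM in G793A replicates 2 and 4, against 0.135 and 0.194 in G793A replicates 1 and 3 and 0.0537 to 0.825 in WT. The same G793A libraries had the high Npas4, as did the WT library with the highest Ccl3, and what this contributes to the difference was not tested. The count of 8 fell to 4 without WT replicate 3 or 4, and to 5 without G793A replicate 2 or 4.

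Lysosomal genes differed little in fold, with a median log2 fold change of 0.17. All 13 were positive and 3 passed the test, beside 50.3% and 0.932% of all genes tested. Ctsd, the protease cathepsin D, was 288, 291, 303 and 291 CPM in WT and 368, 366, 356 and 379 CPM in G793A replicates 1 to 4. The groups did not overlap and the spread within each was narrow beside the 1.25-fold difference (adjusted p = 0.000428). Lgmn, the asparagine endopeptidase legumain, was 1.21-fold higher, and Ctsz, cathepsin Z, 1.28-fold. None of the 3 passed without the 3 libraries with high Npas4 (adjusted p of 0.0650, 0.191 and 0.222), where the fit had 5 of the 8 libraries. Ctsz also did not pass without WT replicate 2, 3 or 4 or G793A replicate 2 or 4 (adjusted p from 0.0535 to 0.0990).

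Of the genes in none of the lists, the 8 with the largest folds at a mean of at least 1 CPM are described next. Tagap, a GTPase-activating protein of immune cells, was 0.855, 0.644, 0.608 and 0.537 CPM in WT and 2.24, 5.38, 1.28 and 3.66 CPM in G793A replicates 1 to 4. The groups did not overlap, the G793A libraries ranged widely, and the highest of them were the ones with high Npas4 (log2 fold change 2.24 ± 0.33, adjusted p = 0.000149). Its call was lost when the 8 libraries were fitted alone (adjusted p = 0.0521).

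Vav1, a guanine nucleotide exchange factor downstream of immune receptors, was 0.886, 1.15, 0.608 and 0.764 CPM in WT and 2.94, 3.36, 2.71 and 2.40 CPM in G793A, with no overlap (3.35-fold, adjusted p = 1.45e-05). Pld4, an endosomal nuclease, was 3.54-fold higher, Hcls1, a leukocyte cortactin homologue, 3.52-fold, and Crybb1, a lens crystallin gene that microglia also express, 3.93-fold. The T-cell costimulatory ligand gene Cd86 (3.23-fold), the podosome protein gene Bin2 (3.21-fold) and Cd180, a Toll-like receptor homologue (3.06-fold), completed the set. Cd86 did not pass without the 3 libraries with high Npas4 (adjusted p = 0.0524).

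The single gene lower in G793A brains was Npbwr1, a receptor for the neuropeptides B and W. It was 2.66, 2.31, 2.24 and 2.74 CPM in WT and 1.75, 1.41, 1.33 and 1.64 CPM in G793A replicates 1 to 4, so the groups did not overlap (log2 fold change -0.70 ± 0.14, adjusted p = 0.00901). On control chow the log2 difference was 0.24, and on PLX5622 it was 0.06. The call was lost without WT replicate 4 (adjusted p = 0.0525), G793A replicate 2 (0.0523) or G793A replicate 3 (0.0541). Among the next genes by p, Fbxl18 (log2 fold change -0.18), Rnf24 (-0.20) and Klf8 (-0.39) did not pass, with adjusted p from 0.0800 to 0.133. DESeq2 counted 5 genes lower in all, a count that does not say which of these genes it holds.

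No member of the lists of other brain and blood cell types passed. The median log2 fold change was 0.01 over 14 neuronal markers, -0.06 over 17 astrocyte genes, 0.05 over 15 endothelial and mural genes, 0.09 over 14 myelin genes and -0.01 over 12 oligodendrocyte precursor markers. The members with the smallest p were Gjb6 among astrocyte genes (log2 fold change 0.26, adjusted p = 0.676), Mal among myelin genes (0.21, adjusted p = 0.668) and Enpp6 among committed precursor genes (0.26, adjusted p = 0.578). Immediate early genes had a median of 0.28 over 13 members with none passed, and Ier2, the one with the smallest p, ran from 11.2 to 18.3 CPM in WT and from 7.58 to 30.8 CPM in G793A brains. Without the 3 libraries with high Npas4 the log2 fold change of Ier2 turned from 0.49 to -0.39.

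Of 12 tested markers of T, B and NK cells, neutrophils and monocytes, none passed either, and their summed level was 14.2 to 21.9 CPM in WT and 12.1 to 22.4 CPM in G793A libraries. The monocyte genes Ccr2 (log2 fold change 0.80) and Ly6c2 (1.05) had adjusted p of 0.680 and 0.586. All 5 red blood cell genes were positive, beside 50.3% of all genes, with a median of 0.86. Hba-a2, an alpha globin, was 17.9, 16.8, 29.9 and 11.5 CPM in WT and 76.5, 22.8, 26.3 and 42.4 CPM in G793A replicates 1 to 4, overlapping groups that did not pass (adjusted p = 0.591). What blood in the libraries contributes to the differences above was not tested.

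None of 15 antigen presentation genes passed, with a median log2 fold change of 0.18 and 14 of them positive, beside 50.3% of all genes. H2-Aa, the alpha chain of an MHC class II molecule, was 1.34, 0.912, 1.16 and 0.198 CPM in WT and 0.836, 1.99, 2.23 and 1.18 CPM in G793A replicates 1 to 4. The groups overlapped (log2 fold change 0.81 ± 0.37, adjusted p = 0.604), and the G793A mean was 55.5% of that of G793A brains on control chow. The invariant chain gene Cd74 stood at 46.6% of the control-chow mean in WT and 63.6% in G793A brains. H2-DMb1, the member with the smallest p, had a log2 fold change of 0.61 (adjusted p = 0.475). Interferon-stimulated genes had a median of 0.09 with 0 of 18 passed, and Bst2, their member with the smallest p, was at 0.68 (adjusted p = 0.165).

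On control chow the genotype difference passed for no gene (0% of 16209, smallest adjusted p = 0.358 by edgeR, 1803 genes at an unadjusted p under 0.05). The 151 genes had a median log2 difference of -0.07 between genotypes there, and 106 of them were negative, beside 51.7% of all genes. The difference between the diets was itself tested. It was larger on PLX3397 than on control chow for 89 genes (0.549%), all of which were among the 151, and smaller for 1 gene (0.00617%), Npbwr1, with a log2 difference of -0.94. Mrc1 differed between the diets by 3.39, P2ry12 by 2.26 and Csf1r by 1.88 on the log2 scale. The PLX3397 libraries enter both this test and the direct one, so the overlap is no separate support.

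Set beside the level on control chow within each genotype, the 151 genes stood at 5.86 to 99.1% (median 36.7%) in WT and at 58.3 to 253% (median 87.0%) in G793A brains. In G793A brains 127 of the 151 were below their own control mean, a count with no share over all genes tested to set beside it. Among the low values in WT were those of border macrophage genes: Mrc1 was at 6.49% of control and Pf4 at 7.16%. In G793A brains the same genes were at 68.3% and 58.3%, and P2ry12 at 79.7%. These percentages are of group means and were not tested. The 151 genes were chosen on these same PLX3397 libraries, so the gap between the genotypes is set in part by that choice.

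On PLX5622 the same genotype comparison, which shares no library with the one on PLX3397, passed for 177 genes higher in G793A (1.09%) and for 0 lower. There were 130 genes in both sets, 86.1% of the PLX3397 set and 73.4% of the PLX5622 set. All 151 PLX3397 genes were positive on PLX5622, with a median log2 difference of 1.57 there, against -0.0046 over all genes tested. Across the 151 genes the correlation of the log2 differences on the inhibitors was r = 0.839, a description over genes chosen on one of them. The difference was larger on PLX5622 for 116 of the 151, beside 51.2% of all genes, and the median of PLX3397 minus PLX5622 was -0.27.

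Gene by gene this gap did not pass the test. No gene passed for the difference between the inhibitors (0% of 16209 by edgeR, 599 at an unadjusted p under 0.05, and 1 gene by DESeq2). Csf1r had a log2 genotype difference of 1.68 on PLX3397 and 2.54 on PLX5622, P2ry12 of 2.03 and 3.08, and P2ry13 of 2.19 and 3.54. Aif1 (1.71 and 1.54), Tgfb1 (0.93 and 0.71) and Ctsd (0.32 and 0.21) were at or above their PLX5622 values on PLX3397. The doses in chow differed, so these values are set side by side without a comparison of the compounds.

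**Figure D4:**
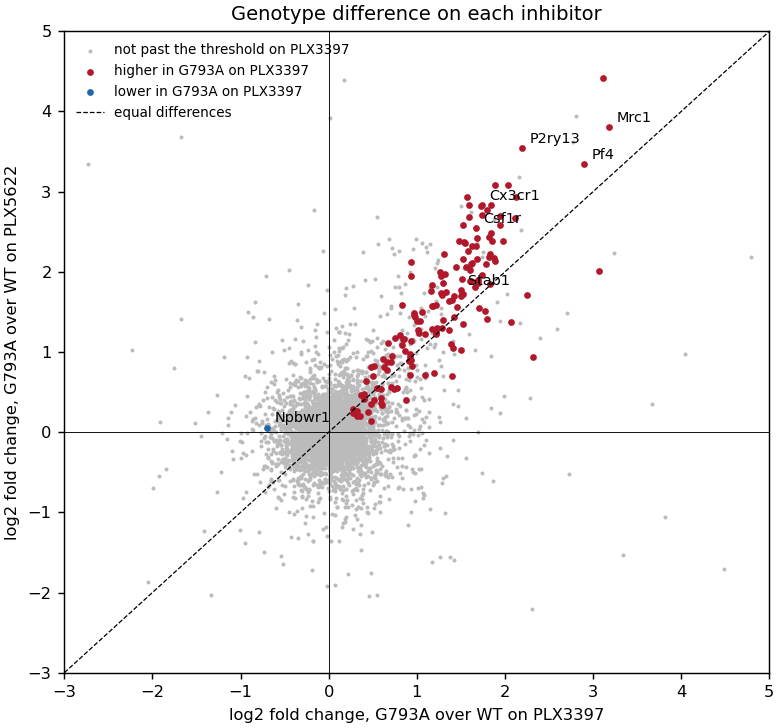
Each point is a gene, with its log2 fold change of G793A over WT brains on PLX3397 on the x axis and on PLX5622 on the y axis; the dashed line marks equal differences, and 14 genes outside the plotted range, none past the threshold, are not drawn. All 151 red genes lie above 0 on both axes and 116 of them lie above the line, while Npbwr1 (blue) lies near 0 on PLX5622.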

How the data were processed

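Bulk stranded mRNA libraries of brain were made with oligo-dT selection and sequenced on a NovaSeq instrument, per the labels' protocols. Tools listed in the submitters' processing notes are kallisto 0.46.1, FastQC 0.11.9 and DESeq2 1.26.0, with build GRCm39, and how transcript values were summed to genes is not given there. The authors deposited estimated counts per gene symbol, not scaled to library size. They also deposited a table of variance-stabilised log2 values of the same libraries, used here only as an alternative. The deposited table has 22310 named genes; an entry with a blank name (at most 0.0143% of counts in the 8 PLX3397 libraries) was left out.

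Counts were rounded and tested with edgeR 4.0.16 in R 4.3.3: TMM scaling, filterByExpr (minimum count 10, minimum total 15), and 1 robust quasi-likelihood model of all 23 libraries with a term per group (biological coefficient of variation 0.0998). All tests were two-sided, with a threshold of 0.05 on the p adjusted by Benjamini-Hochberg over all genes tested. The SE is the log2 fold change over the root of its F statistic. CPM values use TMM-scaled library sizes. The script was tested on simulated data. Alternatives used RLE scaling, DESeq2 1.42.0, limma 3.58.1, other filters, a replicate block, a trend along transcript length, fewer libraries and each library left out.

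The samples, the 33 gene lists and the comparisons were chosen with earlier results of these data known. Named genes are, first, Csf1r, its ligands and related kinases. Each list gives up to 3 members past the threshold with the smallest p (up to 5 for microglia and border macrophages). For 8 lists with none passed, the member with the smallest p is named. The rest come from genes in no list with a mean of at least 1 CPM whose groups did not overlap. Of these, the 8 with the largest folds higher in G793A are named, and the 5 with the smallest p among those lower. Some genes the rule picks are not reported here. Other named genes were chosen after their values were seen. Replicate numbers did not pair the samples: residuals of same-numbered WT and G793A libraries on PLX3397 correlated at -0.278 to 0.172. Between replicates, counts differed by more than sampling noise (chi-square per degree of freedom of 5.85 to 22.2), so no library was counted as a duplicate.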

Additional observations from a re-analysis of the deposited data

Results flagged for a closer look

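For 30 of the named genes, the genotype difference on PLX3397 differed from that on control chow (edgeR test of the difference itself, adjusted p under 0.05). Over all 16209 genes tested, the difference was larger on PLX3397 for 89 (0.549%) and smaller for 1 (0.00617%). The named genes were largely picked on the PLX3397 comparison, whose libraries also enter this test, so the 30 are no separate support. On the log2 scale the difference between the diets was 1.88 for Csf1r. Among homeostatic microglia genes it was 2.14 for Siglech, 2.26 for P2ry12, 2.30 for P2ry13 and 1.97 for Tmem119. Among general myeloid genes and factors it was 1.71 for Cd53, 1.79 for Aif1, 1.84 for Spi1 and 1.57 for Irf5. Border macrophage genes gave 1.80 for Stab1, 3.39 for Mrc1, 2.89 for Pf4, 1.95 for F13a1 and 3.70 for Cd209f. Immune receptor and complement genes gave 1.78 for Fcgr3, 1.87 for C1qb, 1.35 for Fcgr1, 1.23 for Unc93b1, 1.87 for Tlr13 and 1.44 for Trem2. Cytokine genes gave 1.06 for Il10ra and 1.14 for Tgfb1. Outside the lists it was 1.92 for Crybb1, 2.13 for Pld4, 1.82 for Hcls1, 1.84 for Vav1, 2.05 for Cd86, 1.75 for Bin2 and 1.51 for Cd180. Npbwr1 had the opposite sign, at -0.936.

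In 4 of 102 groups of 4 libraries, 1 library stood apart from the others. Ctsz was 28.4 CPM in WT replicate 1, above the other WT libraries, and 35.6 CPM in G793A replicate 4, above the other G793A libraries. Bst2 at 5.37 CPM and Enpp6 at 16.9 CPM were also high in G793A replicate 4. The criterion was a gap to the nearest library, as a share of the range of the group, above Dixon's 95% critical value, which by its definition chance passes in about 1 in 20 groups.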

How the results depend on the processing

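The count of 151 genes higher in G793A brains became 100 when the model held only the 8 PLX3397 libraries and 90 without the 3 libraries with high Npas4, an alternative chosen after seeing the data. It stayed between 112 (limma on the deposited variance-stabilised values) and 166 (DESeq2) in the other settings and ran from 117 to 154 with each PLX3397 library left out. Of the 151 genes, 106 were called in every one of these leave-one-out fits. The count of genes lower became 5 with DESeq2, 4 with the variance-stabilised values, 5 with the 8 libraries alone and 3 without the high-Npas4 libraries, and ran from 0 (without WT replicate 4) to 2 (without G793A replicate 4) with a library left out. The 90 genes whose genotype difference differed from control chow, in either direction, became 58 with the variance-stabilised values and 56 without the high-Npas4 libraries, and 68 to 93 with a library left out. For the difference from PLX5622, DESeq2 gave 1 gene and each library left out gave 0. The causes were not tested. The replicate block gave 144 genes higher, 1 lower, 76 differing from control chow and 0 from PLX5622; the numbers do not pair the samples. Among named genes past the threshold, no fold change reversed its sign in any setting run. Among the genes the naming rule picked, Cd209f, Tlr7, Ctsz and Npbwr1 lost their call in 15 leave-one-out fits in all and Rnf24 gained one in 1; over all 151 genes higher, 44 missed the threshold in at least 1 such fit and Fcna fell below the filter. Depth limits genes with few counts: 25 of the 151 had a mean under 1 CPM over the 8 libraries.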

Other observations

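Further genes past the test fell into sets put together after their values were seen, so their counts are a description. Of 5 genes of the phagocyte NADPH oxidase, which makes superoxide, 4 were higher in G793A brains on PLX3397, with a median log2 fold change of 1.21 over the 5. The regulatory subunit gene Ncf1 was at a mean of 1.62 CPM in WT and 4.42 CPM in G793A brains (log2 fold change 1.45 ± 0.25, edgeR adjusted p = 0.00137). Ncf4 (1.84), Cyba (0.74) and the small GTPase gene Rac2 (1.21) were also higher. The catalytic subunit gene Cybb had a log2 fold change of 1.05 and did not pass (adjusted p = 0.128). Rac2 lost its call without WT replicate 1, 3 or 4 or G793A replicate 1 or 4 (adjusted p from 0.0605 to 0.126), and Cyba without WT replicate 4 or G793A replicate 2 or 4 (0.0525 to 0.0682). Of 11 genes of signalling below immune receptors, 7 were higher. Inpp5d, the lipid phosphatase SHIP1, was 1.91-fold higher (edgeR adjusted p = 2.80e-05), the kinase gene Lyn 1.79-fold and the phosphatase gene Ptpn6 2.57-fold. The kinase genes Syk (log2 fold change 0.72) and Btk (1.24) and the adaptor genes Blnk (0.36) and Lcp2 (0.67) did not pass, with adjusted p of 0.0945, 0.140, 0.536 and 0.3. Of the 7, Pik3ap1 and Fyb each lost their call without WT replicate 3 or 4 or G793A replicate 1, 2 or 4 (adjusted p from 0.0505 to 0.172 and from 0.0657 to 0.234), and Plcg2 without WT replicate 2 or 4 (0.0564 and 0.07).

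Of 8 genes of prostaglandin and leukotriene metabolism, 4 were higher, with a median log2 fold change of 0.93 over the 8. Hpgds, the haematopoietic prostaglandin D synthase, was at a mean of 1.56 CPM in WT and 4.34 CPM in G793A brains (2.78-fold, edgeR adjusted p = 3.62e-05). Hpgd, which breaks prostaglandins down, was 2.08-fold higher, Alox5ap, the partner of 5-lipoxygenase, 1.92-fold (no longer past the threshold without G793A replicate 2, adjusted p = 0.0523), and Ptgs1, the constitutive cyclooxygenase, 1.32-fold. Ptgs2, the inducible cyclooxygenase that neurons also make, was at a mean of 26.8 CPM in WT and 27.4 CPM in G793A brains (log2 fold change 0.02, adjusted p = 0.995). Alox5 (log2 fold change 1.22), Ltc4s (0.92) and Tbxas1 (0.78) were positive but did not pass, with edgeR adjusted p of 0.243, 0.226 and 0.052.

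Few counts lay behind 2 other genes that passed. The chemokine gene Ccl12 had 7 counts over the 4 WT libraries and 65 over the 4 G793A libraries (ratio 8.90, 95% exact interval 4.08 to 23, counting error only; edgeR adjusted p = 0.0405). It lost its call without WT replicate 2, 3 or 4 or G793A replicate 2 or 4 (adjusted p from 0.11 to 0.204). The ficolin gene Fcna had 8 and 44 counts (ratio 5.27, interval 2.45 to 13; edgeR adjusted p = 0.00339). Without G793A replicate 1 or 3 it was below the filter on low counts and was not tested.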
